A study of Homo sapiens with 4 samples.

Results

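Axon guidance genes encode the ligands and receptors by which growing axons and migrating cells are attracted or repelled. A total of 71 such genes were found by symbol among the 27011 genes of the deposited count table. They comprised 22 ephrins and Eph receptors, 31 semaphorins, plexins and neuropilins, 7 Slits and Robos and 11 netrins with their receptors DCC and UNC5. Ligands made up 37 and receptors 34 of the genes. RNA was sequenced from HEK293T cells, an established human embryonic kidney line, labelled Wild-type (here WT) or HELZ-null (here Helz-null), with 2 biological replicates each and no treatment. The Helz-null line was derived from HEK293T cells by Cas9 editing, with a frameshifting deletion in the helz gene. HELZ is a putative RNA helicase that the study examined for its part in mRNA decay through the CCR4–NOT deadenylase complex, and the comparison asked how the transcriptome differs when HELZ is missing. Whether the null line came from a single clone is not given in the sources used here, and differences between 2 lines cannot be told apart from those owing to the missing protein.

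Eph receptors are receptor tyrosine kinases that bind ephrins on neighbouring cells. A-type ephrins are held by a lipid anchor and B-type ephrins span the membrane, so that ligand and receptor can both signal. Semaphorins, either secreted or bound to the membrane, bind plexins, and most secreted semaphorins need neuropilins as co-receptors. Slits are secreted proteins that repel Robo-bearing cells, and netrins attract through DCC or repel through UNC5 receptors. The same families act outside the nervous system in blood vessels, kidney and other epithelia.

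Library totals lay between 41745401 and 70464140 counts. HELZ itself measured 99.8 and 103.9 CPM (counts scaled to the size of the library) in the WT libraries and 36.98 and 37.88 CPM in the Helz-null libraries. Its log2 fold change (log2FC) was -1.44 (edgeR quasi-likelihood, adjusted p = 2.13e-27), in the direction of the labels. Markers chosen for the HEK293 line were all present above 1 FPKM (reads scaled to the length of the gene and the size of the library) (8 of 8 genes), with a summed level of 692.0 to 696.5 FPKM in WT and 673.4 to 680.6 FPKM in Helz-null libraries. The 8 markers of mature neurons, 4 of them above 1 FPKM, summed to 15.81 to 15.88 FPKM in WT and 16.55 to 16.99 FPKM in Helz-null libraries, most of it TUBB3 (9.70 FPKM), whereas SNAP25 and STMN2 were at or below 0.1 FPKM. Markers of blood summed to 0.959 to 1.12 FPKM in WT and 1.203 to 1.295 FPKM in Helz-null libraries, and those of endothelium to 0.0535 to 0.0961 and 0.137 to 0.138 FPKM. The neuron, blood and endothelial sums were thus higher in both Helz-null libraries, each endothelial gene being at or below 0.1 FPKM. The HEK293 sum was lower in both, as was the glial sum (1.17 to 1.19 FPKM in WT, 1.05 to 1.15 FPKM in Helz-null libraries). The part of these differences in the results on guidance genes was not tested. Sums were at most 3.64 FPKM for fibroblast, 1.19 FPKM for glial and 0.148 FPKM for hepatocyte markers. In RNA from whole cultures, fewer cells that express a gene and less RNA per cell cannot be told apart.

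Of the 71 genes, 35 belonged to the 10978 genes that the authors selected at an FPKM above 2. For these 35 genes p-values were adjusted over the 10978 genes, and genes were called at a false discovery rate (FDR) under 0.005. In Helz-null cells, 13 of the 35 were up-regulated (37.1%) and 4 were down-regulated (11.4%), while 18 were not called. Over all 10978 genes, 13.9% were called up and 15.5% down. The 13 include EPHA3 and PLXNA2, which exceeded an FPKM of 2 in Helz-null libraries only and so entered the 35 through the line in which they were higher. Of the 33 genes above that level in both lines, 11 were called up (33.3%) and 4 down (12.1%), against 13.5% and 15.4% of the 10665 such genes. The median log2FC of the 35 genes was 0.14 (0.091 for the 33 genes), against -0.00091 for all tested genes. Changes were moderate in size, since the log2FC of the 35 genes ranged from -0.69 to 0.68 and none exceeded 2-fold. The normalized values of WT and Helz-null libraries did not overlap for 28 of the 35 genes (80.0%), with both Helz-null libraries higher for 20 and lower for 8, and 70.6% of all tested genes were separated in this way (34.9% higher and 35.7% lower). Without WT replicate 1 the calls down fell to 2 and the median log2FC was 0.092, and without Helz-null replicate 2 only 1 gene was called down. For all called genes of the 4 families the libraries of the 2 lines did not overlap, which adds little to calls made from the same libraries.

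The other 36 genes lay outside that selection. Of these, 29 were kept by the expression filter of edgeR (filterByExpr), which retained 16087 genes and lets a gene pass through the counts of 1 line alone. In a fit over those genes, 4 of the 29 were called, SLIT3 and EPHB3 up and PLXNB1 and EPHA5 down. This is 6.90% in each direction. In the wider set as a whole 9.83% were called up and 11.5% down, and among its 5130 genes outside the selection the shares were 3.8% and 4.31%. The remaining 7 genes were in neither fit. ROBO4 and SEMA5A had 0 counts in every library, which allows up to 0.073 CPM at the floor of 3 counts in the shallowest library. DCC (0, 0, 2 and 2 counts in WT replicates 1 and 2 and Helz-null replicates 1 and 2), EPHA1 (1, 0, 1 and 0) and UNC5D (2, 2, 2 and 4) were near that floor, and NTN5 had 8, 1, 1 and 12 counts. NTNG1, a lipid-anchored relative of the netrins, had 8 and 18 counts in WT and 0 in both Helz-null libraries, so it was at least 9.27-fold lower when the Helz-null group is set to a floor of 3 counts. That limit was 4.72-fold from WT replicate 1 alone and 16.3-fold from WT replicate 2 alone. Such floors account for counting error alone and take each count as independent. If both mates of a read pair were counted, the floors would be higher and the limits on NTNG1 lower.

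**Figure D1:**
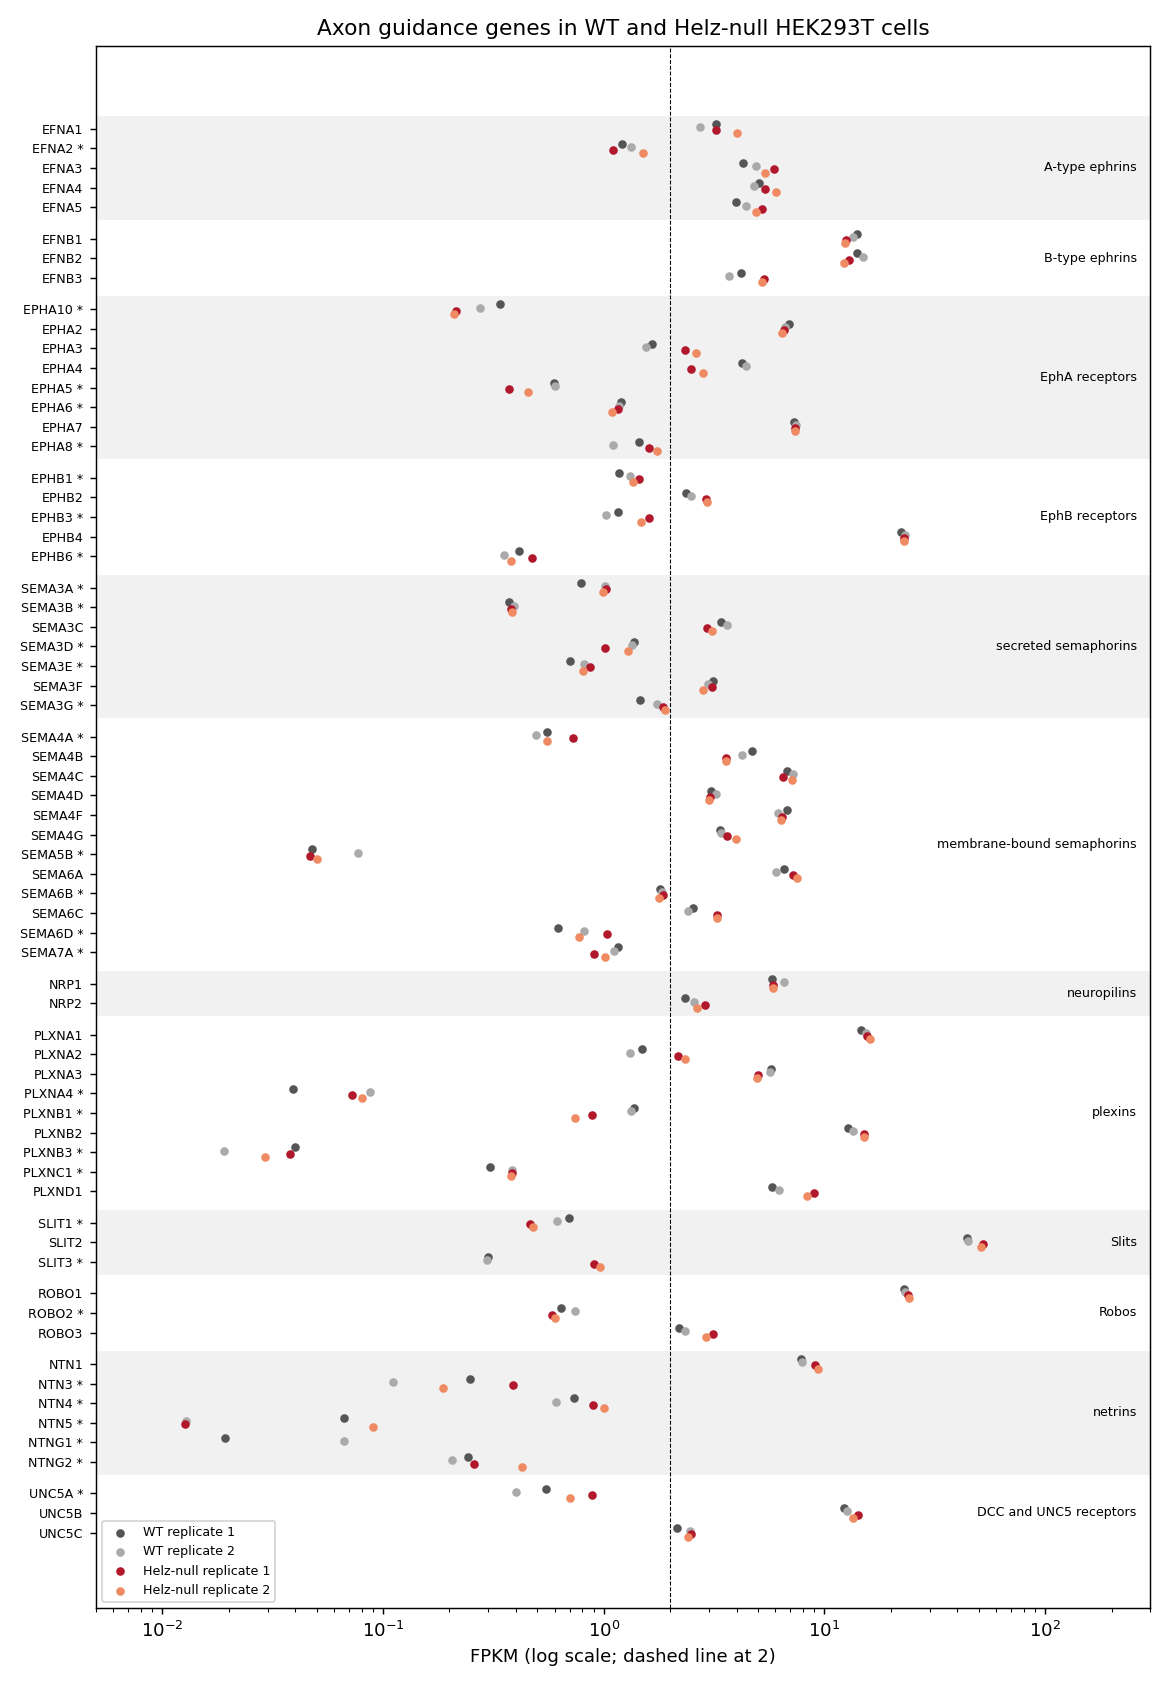
FPKM of axon guidance genes (log axis) in each of the 4 libraries, grouped by class; genes marked * were outside the authors' selection, and genes with fewer than 20 counts in all are left out, as are the values at 0 of NTNG1 in Helz-null libraries. SLIT2 lies furthest to the right with a mean of 48.1 FPKM, followed by ROBO1 and EPHB4, and grey (WT) and red or orange (Helz-null) points of most genes lie close together.

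Among the Slits and Robos, ligand SLIT2 and receptor ROBO1 were by far the most abundant. On the FPKM scale, which is per length, SLIT2 had the highest level of the 71 genes (mean 48.1 FPKM, above 84.9% of the selected genes) and ROBO1 the second highest (23.5 FPKM). SLIT2 measured 355.3 and 361.3 CPM in WT against 420.6 and 414.1 CPM in Helz-null libraries, which is 1.16-fold more (log2FC 0.22, standard error 0.028, adjusted p = 2.58e-08 from edgeR). Both Helz-null values lay above both WT values. Its receptor ROBO1 was not called (log2FC 0.057, standard error 0.031), its level being 182.1 ± 1.35 CPM for WT and 189.3 ± 0.943 CPM for Helz-null cells (SD over n = 2 each).

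SLIT3, a second Slit, changed more than any other of the 64 genes in the 2 fits. Its level was low, with 2.91 and 2.88 CPM in WT libraries (183 and 118 counts) and 8.76 and 9.41 CPM in Helz-null libraries (362 and 656 counts). The libraries of each line agreed closely and the lines did not overlap. SLIT3 thus rose 3.14-fold (log2FC 1.65, standard error 0.12, adjusted p = 9.20e-13 from edgeR over the wider set of genes), and its log2FC stayed between 1.59 and 1.69 with single libraries left out. SLIT3 nevertheless remained far below SLIT2 per length, since SLIT2 accounted for 97.6% of the summed FPKM of the 3 Slits. That sum was 45.4 ± 0.462 FPKM in WT and 53.2 ± 0.515 FPKM in Helz-null cells (SD, n = 2 each). SLIT1 was not called, with 5.53 and 4.88 CPM in WT against 3.68 and 3.79 CPM in Helz-null libraries (log2FC -0.49, adjusted p = 0.0060).

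ROBO3, a divergent Robo known for its part in midline crossing of axons, measured 9.97 and 10.6 CPM in WT against 14.2 and 13.3 CPM in Helz-null libraries. It was thus 1.34-fold higher (edgeR adjusted p = 1.61e-04, log2FC 0.42 with a standard error of 0.088). ROBO2 was not called, at 5.75 and 6.71 CPM in WT against 5.28 and 5.42 CPM in Helz-null libraries.

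Of the 4 selected EphA receptors 1 was called up, 1 down and 2 not at all. Over the selected genes, 13.9% were called up and 15.5% down. Of 4 more in the wider set 1 was called down, where the shares outside the selection were 3.8% up and 4.31% down. EPHA4, a receptor that binds ephrins of both types, fell from 28.3 and 29.3 CPM in WT to 16.6 and 18.7 CPM in Helz-null libraries. Its level in Helz-null cells was 61.9% of that in WT cells (log2FC -0.69, standard error 0.068, adjusted p = 4.13e-11 from edgeR). EPHA3, which binds mainly A-type ephrins, rose from 10.99 and 10.42 CPM to 15.7 and 17.4 CPM, 1.55-fold more (edgeR adjusted p = 6.84e-08, log2FC 0.63 with a standard error of 0.084). For neither gene did the libraries of the 2 lines overlap. EPHA3 was above the selection level of FPKM 2 in Helz-null libraries only (1.65 and 1.56 FPKM in WT, 2.35 and 2.61 FPKM in Helz-null), so its place among the selected genes depended on the line in which it was higher. EPHA5, a low-level receptor outside the selection, fell from 5.89 and 5.95 CPM to 3.68 and 4.48 CPM (log2FC -0.52, adjusted p = 0.0022 from edgeR over the wider set). EPHA7 had the highest FPKM of the EphA receptors (7.38 FPKM) and was not called, its level being 55.3 ± 0.792 CPM for WT and 55.1 ± 0.133 CPM for Helz-null cells (log2FC -0.0048, standard error 0.044). EPHA2 was not called either (log2FC -0.065, adjusted p = 0.41). With losses and gains in the same class, the summed FPKM of the 9 EphA receptors was 23.4 ± 0.370 in WT and 22.4 ± 0.376 in Helz-null cells.

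EPHA3 and EPHA4 are shown with sequence because they are close relatives with opposite changes. The motif TATTTAT, a core of AU-rich elements known to recruit mRNA decay factors, was searched on the sense strand of the 3′ UTR of 1 canonical transcript per gene. It was present in 36.3% of the 10608 selected genes with an annotated 3′ UTR and in 60.0% of the 35 selected guidance genes, whose 3′ UTRs were also longer (median 1796 against 1351 nt). The 3′ UTRs of EPHA3 and EPHA4 each held 3 copies, printed here 5′ to 3′ with the motif in capitals.
EPHA3, chr3:89529276-89529302, plus strand: aaaaagtacaTATTTATtttcttttga
EPHA3, chr3:89529311-89529337, plus strand: tattgttttcTATTTATgccttgatga
EPHA3, chr3:89531045-89531071, plus strand: ttacatatatTATTTATttctggtaac
EPHA4, chr2:222284940-222284966, minus strand: tttgcggtttTATTTATatgtatttcc
EPHA4, chr2:222283703-222283729, minus strand: catcaataaaTATTTATtacattctga
EPHA4, chr2:222282837-222282863, minus strand: ttatgtcattTATTTATggtcttttat
These windows come from the GENCODE annotation on GRCh37, the assembly also called hg19. The copies are matches of letters only, and the gene that rose and the gene that fell had the same number of them. Of the 13 up-regulated selected genes 8 held the motif, of the 4 down-regulated genes 3, and of the 18 that were not called 10.

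EphB receptors were higher or not called. EPHB4, the receptor of ephrin-B2 best known from blood vessels, was the third most abundant guidance gene (22.8 FPKM) and was not called, with a log2FC of 0.023 and a standard error of 0.036. EPHB2 rose 1.21-fold, from 26.0 and 27.4 CPM to 32.1 and 32.4 CPM (log2FC 0.27, standard error 0.058, adjusted p = 1.76e-04 from edgeR). EPHB3, which lay outside the selection and was picked for mention after its value was seen, measured 4.92 and 4.32 CPM in WT against 6.78 and 6.25 CPM in Helz-null libraries (log2FC 0.48, adjusted p = 0.0028 over the wider set).

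Of the 7 selected ephrins, the ligands of these receptors, 2 were called up (28.6%) and 1 down (14.3%), against 13.9% and 15.5% of all tested genes. Of the 4 selected A-type ephrins EFNA5 was called, rising 1.21-fold from 21.3 and 23.4 CPM to 27.9 and 26.2 CPM (log2FC 0.28, standard error 0.065, adjusted p = 6.62e-04). EFNA1, EFNA3 and EFNA4 had log2FC values of 0.29, 0.31 and 0.22 and were not called (adjusted p = 0.078, 0.015 and 0.13). These 3 genes lie side by side on chromosome 1 between positions 155036213 and 155107375. With single libraries left out, the log2FC of EFNA4 ranged from 0.11 to 0.29. Summed over the 5 A-type ephrins, the level was 18.0 ± 0.325 FPKM in WT and 21.4 ± 0.749 FPKM in Helz-null cells. Of the B-type ephrins, EFNB3 rose 1.33-fold, from 13.5 and 11.9 CPM to 17.1 and 16.8 CPM (log2FC 0.41, standard error 0.081, adjusted p = 6.99e-05). EFNB2, the most abundant of them, fell from 61.9 and 65.6 CPM to 56.6 and 54.05 CPM (log2FC -0.20, standard error 0.045, adjusted p = 2.47e-04). EFNB1 had 46.6 and 44.9 CPM in WT against 41.65 and 41.38 CPM in Helz-null libraries and was not called (adjusted p = 0.018).
Without Helz-null replicate 1, only 2 genes outside the selection were called. In the ephrin family 4 of the called genes rested on all libraries being used. EFNA5 was not called without WT replicate 1 (log2FC 0.20) or Helz-null replicate 1 (0.23), EFNB2 was not called without Helz-null replicate 2 (-0.17), EPHA5 was not called without WT replicate 1 (-0.53) or Helz-null replicate 1 (-0.41), and EPHB3 was not called without WT replicate 2 (0.40) or either Helz-null replicate (0.42 and 0.54). DESeq2 did not call EFNA5 (adjusted p = 0.0057), EPHA5 (0.018) or EPHB3 (0.021). With the offset for GC content EPHA5 (adjusted p = 0.0053) and EPHB3 (0.0068) were not called, nor was EPHB3 with libraries thinned to the smallest one (0.0061).

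**Figure D2:**
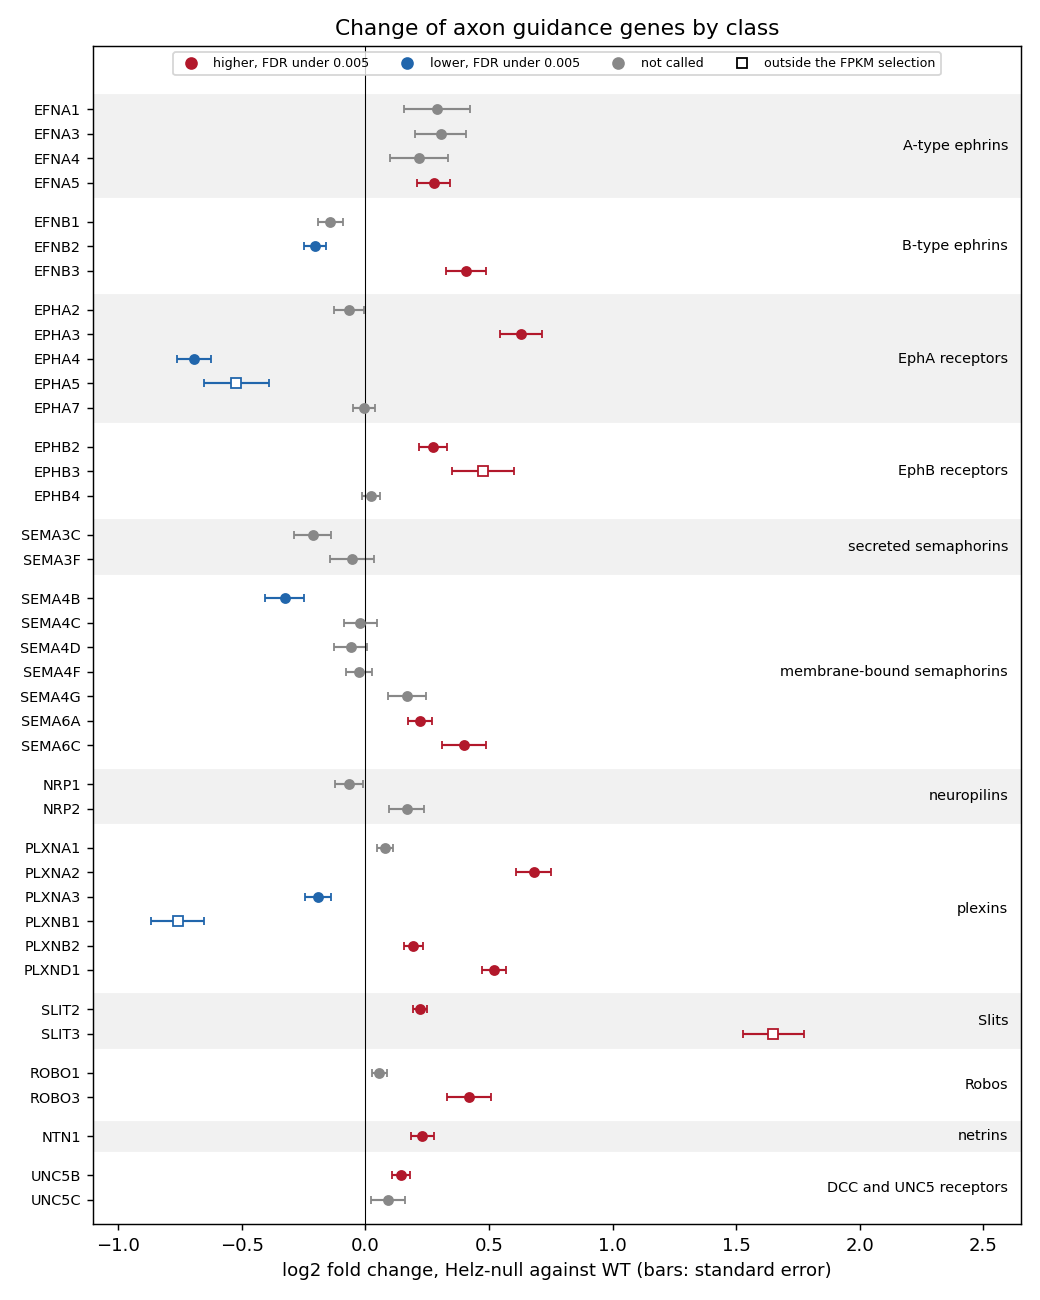
Log2FC of Helz-null against WT cells with standard errors for the 35 selected genes (circles) and the 4 called genes outside the selection (open squares), grouped by class and coloured by call. SLIT3 stands apart at 1.65, EPHA3 and EPHA4 lie on opposite sides of 0, and the plexins spread from -0.76 to 0.68.

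Plexins, the semaphorin receptors, had 3 genes called up and 1 down of 5 selected genes (60% and 20%, against 13.9% and 15.5% of all tested genes), and 2 up and 1 down of the 4 that were above FPKM 2 in both lines. PLXNA2 rose 1.60-fold, from 17.01 and 15.10 CPM in WT to 24.9 and 26.7 CPM in Helz-null libraries (log2FC 0.68, standard error 0.071, adjusted p = 2.12e-10 from edgeR). PLXND1, a receptor with a known role in vessel patterning, rose 1.44-fold from 40.5 and 43.6 CPM to 62.7 and 58.0 CPM (log2FC 0.52, standard error 0.049, adjusted p = 1.66e-11). PLXNB2 rose 1.14-fold, from 83.4 ± 3.28 to 95.3 ± 0.030 CPM (log2FC 0.19, adjusted p = 4.52e-05). PLXNA2 entered the selection, like EPHA3, through the Helz-null libraries only (1.49 and 1.32 FPKM in WT, 2.18 and 2.33 FPKM in Helz-null). In each of these genes both Helz-null libraries were above both WT libraries.

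PLXNA3 and PLXNB1 went the other way. PLXNA3 had 38.7 and 38.1 CPM in WT against 33.8 and 33.5 CPM in Helz-null libraries (log2FC -0.19, standard error 0.053, adjusted p = 0.0029 from edgeR). PLXNB1, a receptor of the membrane-bound semaphorin SEMA4D, lay outside the selection and fell from 10.1 and 9.81 CPM to 6.49 and 5.45 CPM (log2FC -0.76, standard error 0.11, adjusted p = 7.21e-07 over the wider set). PLXNA1, the plexin with the highest FPKM (15.4 FPKM), was not called (log2FC 0.080, edgeR adjusted p = 0.051). Its log2FC ranged from 0.043 to 0.12 with single libraries left out. The summed level of the 9 plexins was 43.1 ± 1.22 FPKM in WT and 48.0 ± 0.204 FPKM in Helz-null cells (SD, n = 2 each). Neither neuropilin was called, with log2FC values of -0.067 for NRP1 and 0.17 for NRP2.

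Of the 9 selected semaphorins, 2 were up-regulated (22.2%) and 1 was down-regulated (11.1%), which is near the shares of 13.9% and 15.5% over all tested genes. SEMA6A, a transmembrane semaphorin, rose 1.17-fold, from 46.0 and 42.2 CPM to 50.4 and 52.6 CPM (log2FC 0.22, standard error 0.049, adjusted p = 3.22e-04 from edgeR). SEMA6C rose 1.32-fold, from 10.2 and 9.68 CPM to 13.2 and 13.1 CPM (log2FC 0.40, standard error 0.089, adjusted p = 3.33e-04). SEMA4B fell from 18.5 and 16.7 CPM to 14.1 and 14.1 CPM (log2FC -0.33, standard error 0.078, adjusted p = 7.40e-04). SEMA4C, SEMA4D, SEMA4F and SEMA4G were not called, with log2FC values from -0.059 to 0.17. Neither of the 2 selected secreted semaphorins was called (SEMA3C with a log2FC of -0.21 and an adjusted p of 0.020, SEMA3F with -0.055 and 0.66), and none of the 5 others was called in the wider set.
Single libraries decided 3 calls of this family. PLXNA3 was not called without WT replicate 1 (log2FC -0.18), Helz-null replicate 1 (-0.20) or Helz-null replicate 2 (-0.18), nor under DESeq2 (adjusted p = 0.019), with libraries scaled by their size only (-0.16, adjusted p = 0.012) or by the upper quartile (-0.18, adjusted p = 0.0054), or with thinned libraries (-0.15, adjusted p = 0.034). SEMA6A was not called without WT replicate 2 (0.17) or Helz-null replicate 2 (0.19), and SEMA4B was not called without WT replicate 1 (-0.24) or Helz-null replicate 2 (-0.33). SEMA4B was also not called under DESeq2 (adjusted p = 0.0076), and its sign turned with the median of its chromosomal neighbours subtracted (0.015).

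**Figure D3:**
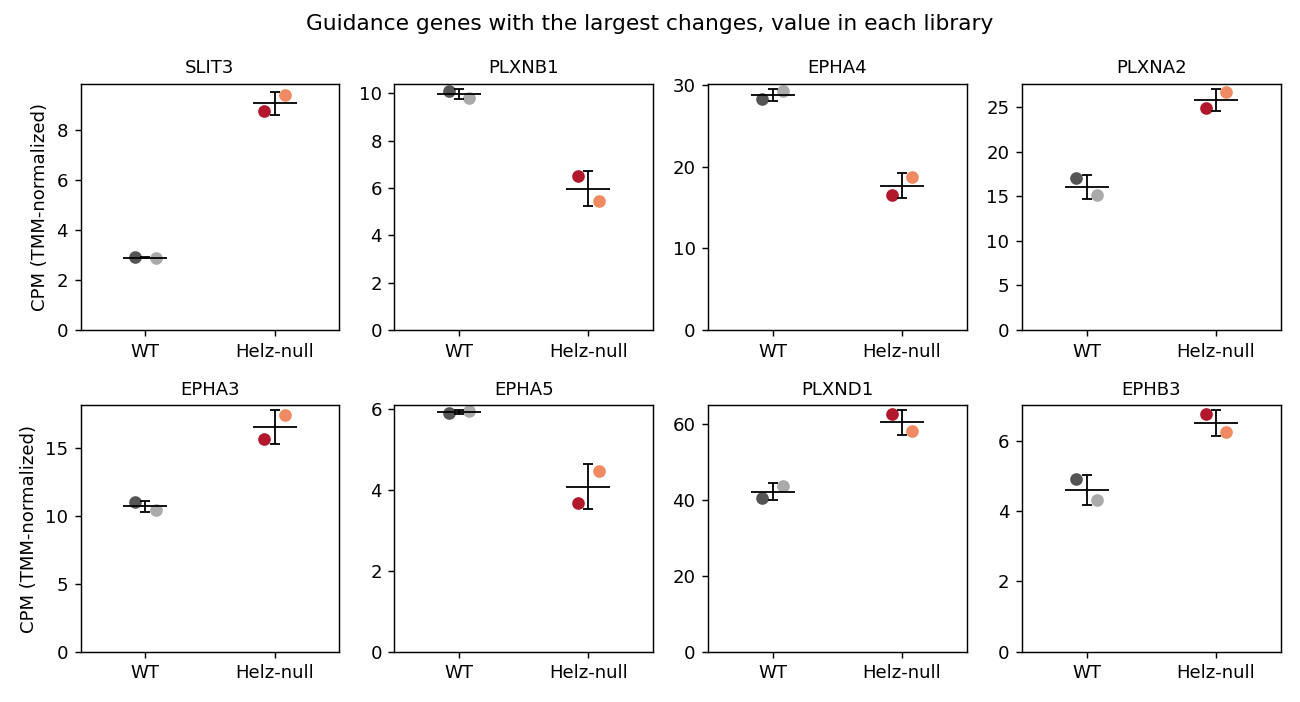
TMM-normalized CPM in each library (points: grey for WT, red and orange for Helz-null; bars: mean ± SD, n = 2) for the 8 guidance genes with large changes that the text describes; every axis starts at 0. In each panel the points of the 2 lines are separated, with SLIT3 at 2.88 to 2.91 CPM in WT and 8.76 to 9.41 CPM in Helz-null cells.

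Netrins and their receptors were represented by 3 selected genes. NTN1, the best-known secreted netrin, rose 1.17-fold, from 46.5 and 47.3 CPM in WT to 54.0 and 55.8 CPM in Helz-null libraries (log2FC 0.23, standard error 0.046, adjusted p = 8.28e-05 from edgeR). UNC5B, a dependence receptor for NTN1 and the most abundant of its class (13.1 FPKM), rose 1.11-fold, from 84.6 and 87.4 CPM to 97.3 and 92.9 CPM (log2FC 0.14, standard error 0.037, adjusted p = 0.0016). UNC5C was not called (log2FC 0.091, adjusted p = 0.29). The class of DCC and UNC5 receptors was mostly UNC5B, which held 81.3% of its summed FPKM, and DCC itself was at the counting floor.
UNC5A, at 2.04 and 1.49 CPM in WT against 3.29 and 2.64 CPM in Helz-null libraries, had a log2FC of 0.70 and was not called over the wider set (adjusted p = 0.0054). Both calls of this family depended on single libraries, as NTN1 was not called without Helz-null replicate 2 (log2FC 0.20) and UNC5B was not called without WT replicate 1 (0.12) or Helz-null replicate 1 (0.11). UNC5B was also not called under DESeq2 (adjusted p = 0.010) or with thinned libraries (0.012).

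To see whether a gene moved with its surroundings, each was set beside the other tested genes within 5 Mb on either side. For 15 of the 17 called selected genes and for SLIT3 and EPHB3, the median log2FC of these neighbours lay between -0.069 and 0.058. SEMA4B differed from these. It lies on chromosome 15 (90703836 to 90772911, plus strand), and its 37 neighbours had a median log2FC of -0.34, close to its own value of -0.33. With the neighbours' median subtracted its log2FC was 0.015 and it was not called (adjusted p = 0.90). PLXNB1 on chromosome 3 (48445261 to 48471495, minus strand) had 163 neighbours in the wider set with a median of -0.25, and its log2FC was -0.51 after subtraction (adjusted p = 3.20e-04). SEMA3F, on the same arm (50192478 to 50226508), had a log2FC of -0.055 among neighbours with a median of -0.23. In the wider set, SEMA3B and SEMA3G on chromosome 3 had log2FC values of 0.00089 and 0.24 among neighbours with medians of -0.24 and -0.23. SEMA7A on chromosome 15 had -0.24 with neighbours at -0.37, and EPHB6 on chromosome 7 had 0.12 with neighbours at 0.20. None of these was called. EPHA3 and EPHA5 had only 8 tested neighbours each, too few for a median here. EPHA4 (chromosome 2, 222282747 to 222438922, minus strand) and SLIT3 (chromosome 5, 168088745 to 168728143, minus strand) stood apart from neighbours with medians of 0.021 and 0.051.

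**Figure D4:**
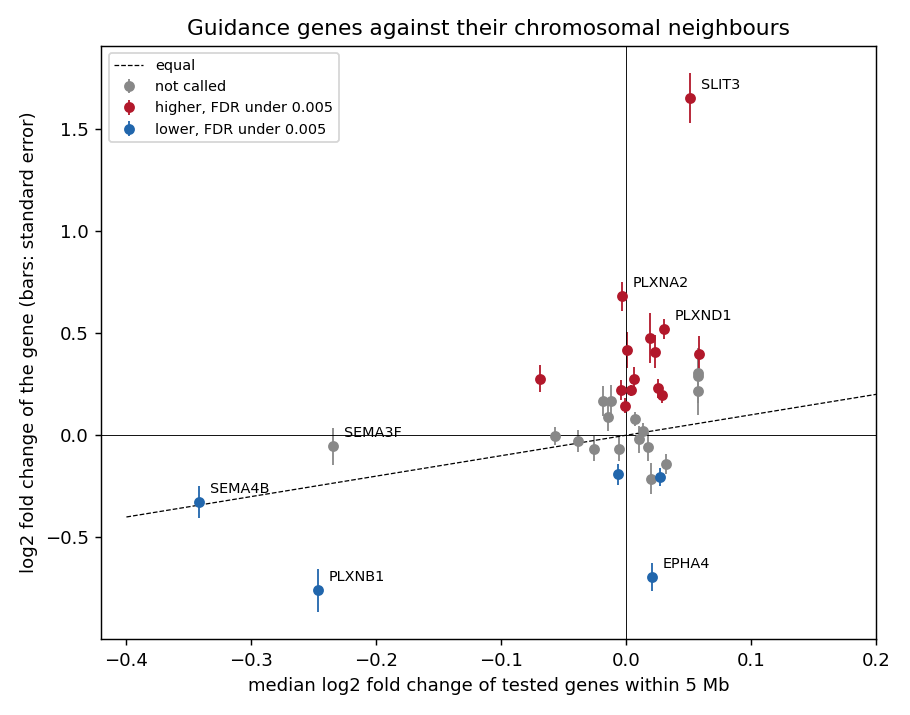
Log2FC of the guidance genes in the plot of changes that had at least 10 neighbours (vertical axis, with standard error) against the median log2FC of the other tested genes within 5 Mb (horizontal axis); the dashed line marks equal values. Most genes lie near 0 on the horizontal axis, SEMA4B lies on the line at -0.34, and PLXNB1 lies below it.

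The median coding sequence of the 35 selected guidance genes was 2793 nt long with a GC content of 59.1%, against 1371 nt and 52.0% for all selected genes with a coding sequence. Of the 35 genes, 7 had a shorter coding sequence and 9 a lower GC content than these medians of all genes. The GC content of the 13 up-regulated genes was 62.9%, that of the 4 down-regulated genes 55.8% and that of the 18 not called 58.9% (medians). With a trend of expression on GC content removed from each library, 12 genes were called up and 5 down. UNC5B was then no longer called (log2FC 0.11) and EFNB1 was called down (-0.18).

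Genes that act with these ligands and receptors were counted from lists made by symbol. Among 58 tested genes for cytoplasmic guidance signalling (kinases, actin regulators and other intracellular proteins), 14 were up-regulated (24.1%) and 4 were down-regulated (6.90%), compared with 13.9% and 15.5% of all tested genes, with a median log2FC of 0.033. CRMP1, an intracellular mediator of semaphorin signalling, rose from 15.7 ± 0.810 to 22.5 ± 0.218 CPM (log2FC 0.51, adjusted p = 1.73e-07 from edgeR). ENAH, an actin regulator, fell from 417.0 ± 5.91 to 290.4 ± 0.203 CPM (log2FC -0.52, adjusted p = 1.68e-18). ENAH lies on chromosome 1 among neighbours with a median log2FC of -0.57, and with that median subtracted its log2FC was 0.045 (adjusted p = 0.21). With single libraries left out, the 18 calls of this list became 12 to 21, the fewest without Helz-null replicate 2.

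Among 19 tested genes for other guidance receptors, ligands and cofactors, 6 were up-regulated (31.6%) and 5 down-regulated (26.3%), against 13.9% and 15.5% of all tested genes (median log2FC 0.13). NRCAM and FZD3 were above FPKM 2 in 1 line only, and of the other 17 genes 5 were called up (29.4%) and 5 down (29.4%). LRRC4B, an adhesion protein of synapses, rose 1.69-fold (9.42 ± 0.117 to 15.9 ± 0.618 CPM, log2FC 0.76, adjusted p = 1.63e-09 from edgeR). NRCAM, an adhesion molecule that can act with neuropilins, rose 1.53-fold (10.9 ± 1.54 to 16.4 ± 0.113 CPM, log2FC 0.61, adjusted p = 3.38e-07). It entered the selection through the Helz-null libraries only (1.47 and 1.79 FPKM in WT, 2.44 and 2.47 FPKM in Helz-null). GPC1, a heparan sulphate proteoglycan to which Slits bind, rose 1.46-fold (31.1 ± 0.060 to 45.5 ± 1.58 CPM, log2FC 0.55, adjusted p = 2.58e-11). Of 14 tested proteases that cleave such surface proteins and their inhibitors, 4 were up-regulated (28.6%) and 2 down-regulated (14.3%), with the same shares of 13.9% and 15.5% over all tested genes (median log2FC 0.064). MMP2, a matrix metalloprotease, rose 1.95-fold (10.2 ± 0.453 to 20.1 ± 0.581 CPM, log2FC 0.96, adjusted p = 5.05e-13 from edgeR), and TIMP2, which binds it, rose 1.49-fold (54.9 ± 4.27 to 81.1 ± 0.554 CPM, log2FC 0.57, adjusted p = 7.62e-14). PSEN2, a catalytic subunit of gamma-secretase, fell (48.8 ± 0.778 to 27.8 ± 0.849 CPM, log2FC -0.82, adjusted p = 3.41e-16). Its neighbours on chromosome 1 had a median of -0.54, and its log2FC after subtraction was -0.28 (adjusted p = 5.25e-05).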

How the data were processed

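RNA-Seq was measured in 2 WT and 2 Helz-null libraries. Per the methods of the study, the authors filtered out rRNA reads (Bowtie2), aligned the remaining read pairs on hg19 (TopHat2) and deposited gene-level counts from QuasR. Versions, annotation, strand and handling of mates are not given in the sources used here. Library totals exceeded the numbers of mapped reads that the study reports, so both mates of a pair may have been counted. As an alternative, counts divided by 2 left 13 guidance genes called up and 4 down. The deposited comparison of the authors also lists their test results (fold changes and p-values), of which only the gene names, the 10978 genes selected by FPKM, were used.

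The test was the quasi-likelihood fit of edgeR 4.0.16 under R 4.3.3 (TMM, estimateDisp, glmQLFit, glmQLFTest, Benjamini-Hochberg) with genotype as the only term. Standard errors came from log2FC and F. CPM and FPKM (from the deposited gene width) used TMM factors and the totals of the selected genes. The biological coefficient of variation was 2.60%. Between replicates, chi-square per degree of freedom was 4.16 in WT and 3.01 in Helz-null, above that of independent counts. Counting both mates of a pair would by itself raise these values. The p-values measure the spread between these libraries. Positions and transcripts came from GENCODE on GRCh37, which matched all 71 genes. DESeq2 1.42.0, other scalings, filters, thinning, GC and neighbourhood offsets, a replicate block and libraries left out were alternatives. Data were also simulated for 10971 genes, with independent counts and the same coefficient of variation of 2.60% for every gene. There, 39 of 50 genes changed by 0.3 on the log2 scale and 50 of 50 changed by 0.6 were called, with 2 false calls. False calls in the real data were not measured.

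Genes named were HELZ, each guidance gene called among the selected genes, those called outside the selection with a log2FC of at least 0.5 in either direction, the most abundant gene of each class, and the 3 called genes with the largest change in each further list. EPHB3 (called, below that size) and some uncalled genes were named after their values were seen. 1 named gene of the cytoplasmic list is not reported here. The members and lists were chosen with earlier results of these data known.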

Additional observations from a re-analysis of the deposited data

How the results depend on the processing

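Direction was kept by the 21 called guidance genes under each alternative run, except SEMA4B with neighbours subtracted (0.015), and 6 of them kept their call throughout. Calls up (13) and down (4) became 3 and 1 against a fold change of 1.2 (8.57% and 2.86%, with 1.98% and 2.90% of all tested genes; 1 and 1 of the 33 genes above FPKM 2 in both lines, with 1.71% and 2.66% of all such genes), with 2 called ephrin and Eph genes, 2 of the semaphorin family and 0 Slit or netrin genes, and list calls of 3 and 3 for the cofactor and cytoplasmic lists. DESeq2 gave 2 calls down. The netrin family had 1 call with DESeq2, with thinned libraries and with the GC offset. The median log2FC of 0.14 was 0.18 by library size only, 0.12 when thinned, 0.11 with the GC offset and 0.091 for genes above FPKM 2 in both lines (11 up, 4 down), an alternative chosen after seeing the data. With all genes that had a count, which takes in 69 of the 71 guidance genes, 17 were up (24.6%) and 8 down (11.6%), against 8.49% and 9.70% of 20904 genes, with 4 Slit and 4 netrin calls. The fit over the wider set, with 64 of them, had 15 up and 6 down.
With single libraries left out, calls ranged from 11 to 14 up and 1 to 4 down, from 4 to 7 in the semaphorin and 1 to 2 in the netrin family, and the median from 0.092 to 0.17. Among the 29 genes outside the selection in the wider fit, the 4 calls ranged from 2 to 5. They were 2 with DESeq2, 2 against a fold of 1.2, 7 with all counted genes (8 when NTNG1, in neither fit, is included) and 9 at an FDR under 0.05.
The replicate number as a block left 13 up and 4 down, and raised the calls outside the selection to 7, adding EPHA8, SLIT1 and UNC5A. Equal numbers did not vary together (r = 0.034 over 10978 genes), so the numbers name samples only. Over all genes, the share of calls that were up was 47.3%, and 61.5% by library size only, where the guidance genes had 13 up and 3 down.
Signs of genes that were not called turned. EPHA7 was 0.0094 (upper quartile), 0.028 (library size), 0.00037 (thinned), 0.041 (GC) and 0.052 (neighbours), and -0.021 to 0.011 with libraries left out. EPHB4 was -0.024 (GC) and -0.0055 to 0.049, SEMA4C 0.013 (library size) and -0.097 to 0.040, NRP1 -0.16 to 0.018. The called gene ENAH (-0.52) was 0.045 with neighbours subtracted. The causes were not tested.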
